A study of Caenorhabditis elegans with 3 samples.

Results

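The nuclear pore and nuclear transport genes of the nematode Caenorhabditis elegans were followed in early young adult hermaphrodites. They are the genes whose platform symbol starts with npp-, imb-, ima-, ran- or xpo- and that had a value on all 3 arrays, which gave 32 genes of 15078. Of these, 21 carry the stem npp, 5 ran, 3 xpo, 2 ima and 1 imb. A table of current genes holds 41 protein-coding genes with these stems. Of the 9 that are not among the 32, ima-3 had no value on prep 3, npp-22 shares its probe with a second gene, and imb-1, imb-3, npp-8, npp-13, npp-20, npp-25 and xpo-2 had no probe listed under their symbol. Each array was a two-colour hybridisation. Channel 2 held mRNA of 1 prep of the worms, labelled TP07 YA 1 with the prep number. Channel 1 held a reference labelled as mixed wild-type mRNA. The 3 preps form 1 group, and the reference is the only sample it can be set against. The labels used here give no strain, age in hours, culture conditions or dyes, and do not say which stages or sexes the reference pools. A value is the log2 ratio of the worms to the reference, a comparison of one gene between these RNA pools and not a level, so that 0 means equal signal. The direction is likely worms over reference, from the channel order in the labels and from adult cuticle collagen genes. Of these, col-62 was at 2.22, 2.199 and 3.66 on preps 1, 2 and 3, and col-19 at 2.53, 2.64 and 2.62. Yolk protein genes, also adult markers, had lower mean ratios, of 0.68 for vit-2, 0.25 for vit-6 and 0.05 for vit-5. If the ratios ran the other way, each direction given here would turn round.

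Nuclear pores are large channels through the nuclear envelope, built from many copies of nucleoporins arranged as outer rings, an inner ring, a central channel lined with phenylalanine-glycine repeats, filaments towards the cytoplasm and a basket towards the nucleus. Importins and exportins carry proteins and RNA through the channel, and the small GTPase Ran sets the direction, being loaded with GTP by its exchange factor on chromatin and discharged by its GTPase-activating protein at the cytoplasmic face. In adult worms the somatic cells no longer divide and the germline is the tissue with dividing nuclei. Its P granules, RNA-rich bodies of germ cells, sit over the nuclear pores.

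Of the 32 genes, 25 were above the reference and 0 below it, while 7 did not pass (limma, Benjamini-Hochberg adjusted p under 0.05 over all genes). Over all genes tested, 21.7% were above the reference and 22.2% below by the same rule. At an unadjusted p of 0.05 in the same limma fit, 28 of the 32 genes were above and 0 below, against 25.2% and 25.7% of all genes. The median of the 32 mean log2 ratios was 0.75, against 0.00 for all genes tested. The medians were 0.68, 0.75 and 0.66 on preps 1, 2 and 3. A positive ratio on all 3 arrays was seen for 29 of the 32 genes, against 33.2% of all genes. In the order of all genes by mean ratio, 28 of the 32 fell in the upper 25% and 14 in the upper 10%, and a mean ratio of at least 1 was reached by 8 of the 32, against 5.8% of all genes. The labels of the 3 preps share TP07 YA 1 and do not say that the preps are separate cultures. The p-values thus cover the spread between these preps alone, which may be technical. In RNA of whole worms, a higher share of cells that use a gene and more RNA of that gene per cell cannot be told apart.

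**Figure D1:**
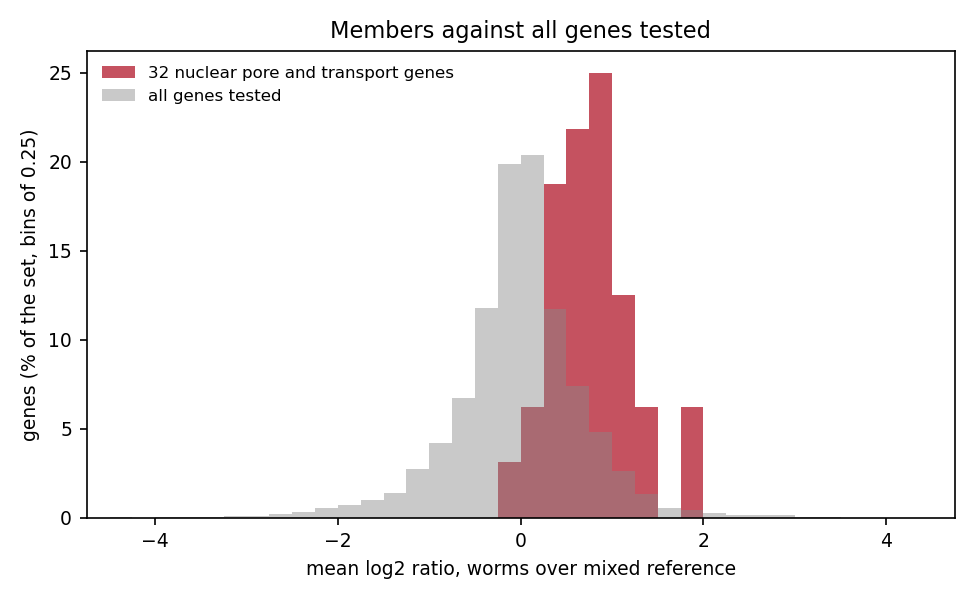
Share of genes (%) in bins of 0.25 of the mean log2 ratio of worms to reference, for the 32 nuclear pore and transport genes (red) and for all 15078 genes tested (grey). The red distribution is centred near its median of 0.75 and has 1 gene below 0, while the grey one is centred at 0.00.

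The highest ratios were those of a gene of the cytoplasmic face and a gene that serves several parts of the pore. npp-9, on chromosome III, encodes the counterpart of vertebrate RanBP2, the large filament protein that binds Ran. It was at 1.98, 1.90 and 1.70 on preps 1, 2 and 3, with a mean of 1.86 ± 0.14 (SD, n = 3), 3.64-fold above the reference (limma adjusted p = 9.30e-06). npp-10, also on chromosome III, encodes one precursor that is cut into a repeat-bearing nucleoporin and a scaffold subunit of the outer ring, so its ratio cannot be assigned to either product. It was at 1.91, 1.995 and 1.66 on preps 1, 2 and 3, with a mean of 1.86 ± 0.17 (SD, n = 3; limma adjusted p = 1.04e-05). On every array these genes were above all others of the 32.

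The other genes of the cytoplasmic face differed more between preps. npp-14, on chromosome I, encodes a repeat protein of the cytoplasmic filaments. It was at 0.52, 1.32 and 1.10 on preps 1, 2 and 3, with a mean of 0.98 ± 0.42 (SD, n = 3; limma adjusted p = 0.00132). Prep 1 was thus the low one, and all preps were above 0. npp-24, on chromosome II, encodes a partner of that protein. It was at 0.30, 0.65 and 0.29, with a mean of 0.41 ± 0.21 (SD, n = 3; limma adjusted p = 0.0373), the lowest ratio of the 25 genes that passed. Its call was lost without prep 2 (0.29, limma adjusted p = 0.382), without prep 3 (0.48, limma adjusted p = 0.0907) and once blocks of neighbouring probes were centred (0.33, limma adjusted p = 0.0738). In the fit without prep 2, the p-values followed the mean ratio and not the spread of each gene.

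The Y-shaped outer ring complex is the scaffold of the pore, and its subunits also act at kinetochores in dividing cells. Of 7 measured genes, 5 were above and 2 did not pass, with a median of 0.71. Besides npp-10, the scaffold gene npp-15 on chromosome III was at 1.61, 0.82 and 0.70 on preps 1, 2 and 3, with a mean of 1.04 ± 0.49 (SD, n = 3; limma adjusted p = 0.00144). Its prep 1 value stood apart, and its SD was the largest of the 32 genes. npp-5, on chromosome II, was at 1.202, 0.74 and 0.64, again highest on prep 1, with a mean of 0.86 ± 0.30 (SD, n = 3; limma adjusted p = 0.00143). npp-2, on chromosome I, was alike on all arrays at 0.66, 0.70 and 0.77 (limma adjusted p = 0.0017), and npp-6, on the same chromosome, was at 0.48, 0.62 and 0.896 (limma adjusted p = 0.0039). The 2 that did not pass encode WD-repeat subunits. npp-18, on chromosome III, was at 0.71, 0.31 and 0.04 on preps 1, 2 and 3, a mean of 0.36 with a 95% interval of 0.003 to 0.71 (limma adjusted p = 0.0959). npp-23, on chromosome IV, was at −0.01, 0.51 and 0.503, a mean of 0.33 with a 95% interval of −0.01 to 0.67 (limma adjusted p = 0.104). It passed without prep 1, at 0.51 (limma adjusted p = 0.00611).

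Each measured gene of the inner ring, the central channel and the nuclear basket was above the reference, 2 of 2, 3 of 3 and 3 of 3. In the inner ring, npp-3 on chromosome II encodes a large scaffold protein and was at 1.05, 1.25 and 1.17 on preps 1, 2 and 3, with a mean of 1.16 ± 0.10 (SD, n = 3; limma adjusted p = 1.19e-04). npp-19, a membrane-binding subunit encoded on the same chromosome, was at 0.58, 0.59 and 0.54, with a mean of 0.57 ± 0.03 (SD, n = 3; limma adjusted p = 0.00541). Its preps lay closer together than those of any other of the 32 genes. Its call was lost without prep 2 (0.56, limma adjusted p = 0.0528), where p-values did not follow the spread of each gene.

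The 3 central channel genes encode the repeat proteins that form the permeable core, and their mean ratios ran from 0.45 to 0.99. npp-11, on chromosome I, was highest at 0.898, 0.98 and 1.09 on preps 1, 2 and 3 (mean 0.99, limma adjusted p = 2.83e-04). npp-4, on chromosome I, was at 0.97, 0.77 and 0.59 (mean 0.78, limma adjusted p = 0.00153). npp-1, on chromosome IV, was at 0.54, 0.61 and 0.21 (mean 0.45, limma adjusted p = 0.0257), but it did not pass without prep 2 (0.38, limma adjusted p = 0.234).

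In the nuclear basket, npp-21 on chromosome II encodes the long coiled-coil protein of the basket filaments. It was at 1.28, 1.51 and 1.12 on preps 1, 2 and 3, with a mean of 1.304 ± 0.20 (SD, n = 3; limma adjusted p = 8.50e-05). npp-7, on chromosome I, encodes a basket repeat protein and was at 0.66, 1.28 and 0.91 (mean 0.95, limma adjusted p = 8.70e-04), with prep 2 the high one. npp-16, on chromosome III, encodes a basket protein that helps importin release its cargo. It was the 1 gene with 2 probes, which were at 1.09, 0.76 and 0.604 and at 0.77, 0.91 and 0.601 on preps 1, 2 and 3. The mean over these probes was 0.79 ± 0.17 (SD, n = 3; limma adjusted p = 0.00126). npp-12, on chromosome I, encodes a pore membrane glycoprotein and was at 1.202, 1.18 and 1.08, with a mean of 1.15 ± 0.07 (SD, n = 3; limma adjusted p = 1.13e-04).

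**Figure D2:**
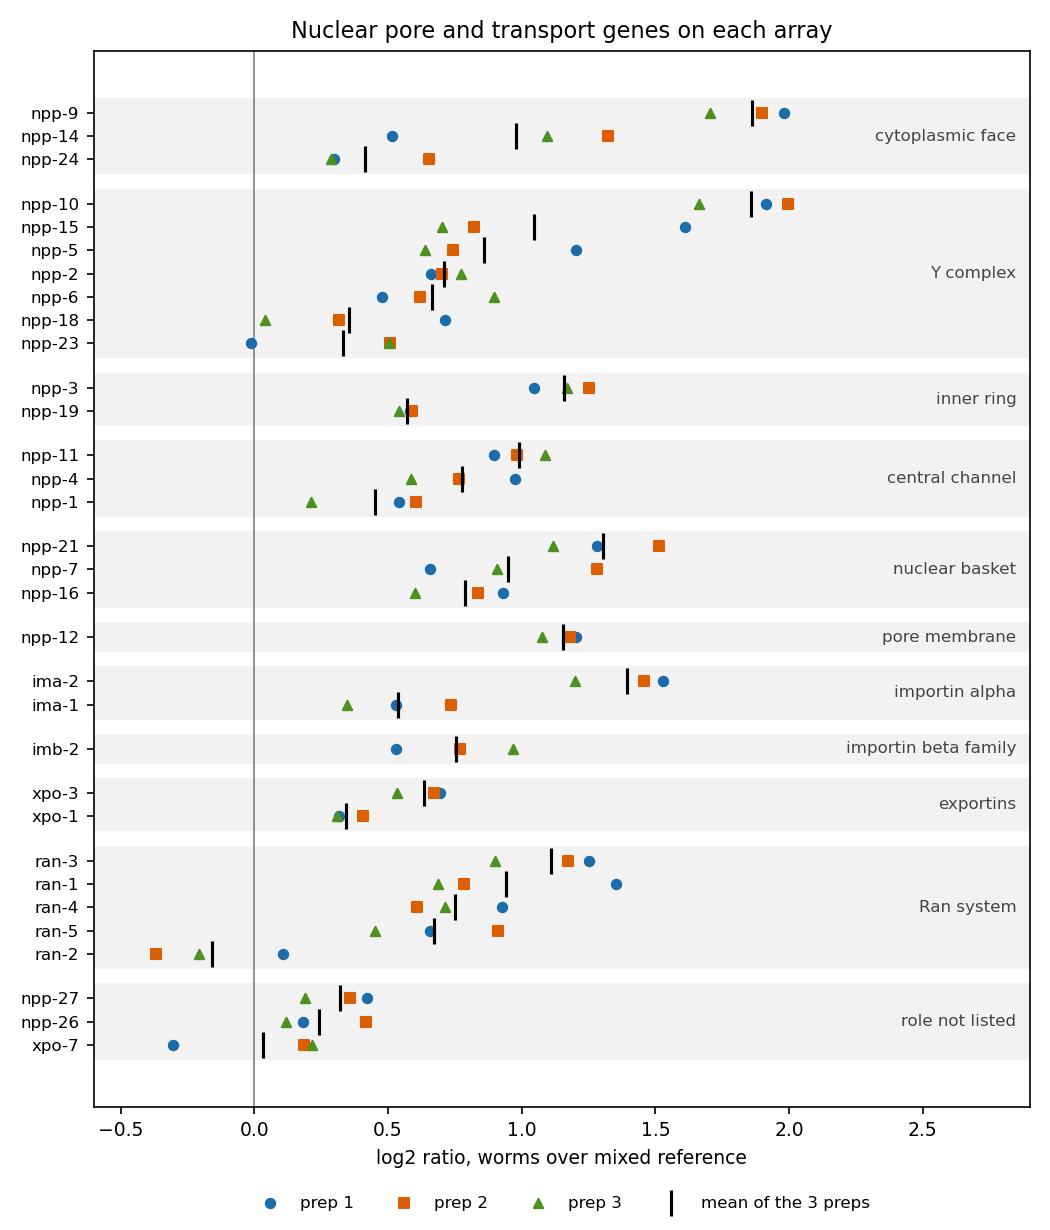
Log2 ratio of worms to reference for each of the 32 genes on each array (blue circle, prep 1; orange square, prep 2; green triangle, prep 3; black bar, mean), with the genes grouped by their place in the pore or their transport role. npp-9 and npp-10 stand to the right of all others on every array, and ran-2 and xpo-7 lie around 0.

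Among the transport receptors, the importin alpha genes were above the reference and differed from each other. Importin alpha reads the classical nuclear localisation signal and hands the cargo to importin beta. ima-2, on chromosome I, was at 1.53, 1.46 and 1.201 on preps 1, 2 and 3, with a mean of 1.395 ± 0.17 (SD, n = 3; limma adjusted p = 5.07e-05). ima-1, on chromosome V, was at 0.53, 0.73 and 0.35, with a mean of 0.54 ± 0.19 (SD, n = 3; limma adjusted p = 0.0109), but it did not pass without prep 2 (0.44, limma adjusted p = 0.152). The difference of the log2 ratios, ima-2 minus ima-1, was 0.999, 0.72 and 0.85 on preps 1, 2 and 3, a mean of 0.86 ± 0.14 (SD, n = 3), and no test was run on it. imb-2, on chromosome II, encodes transportin, an importin of the beta family that binds its cargo directly. It was at 0.53, 0.77 and 0.97, with a mean of 0.76 ± 0.22 (SD, n = 3; limma adjusted p = 0.00196).

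Of the 3 genes with the stem xpo, 1 was above the reference. xpo-3, on chromosome IV, is the gene of the tRNA exportin and was at 0.69, 0.67 and 0.53 on preps 1, 2 and 3, with a mean of 0.63 ± 0.09 (SD, n = 3; limma adjusted p = 0.00339). xpo-1, on chromosome V, encodes the exportin of proteins with leucine-rich export signals and was at 0.31, 0.41 and 0.31, a mean of 0.34 with a 95% interval of 0.05 to 0.63 (limma adjusted p = 0.0554). It passed without prep 1 (0.36, limma adjusted p = 0.0338) and once blocks of neighbouring probes were centred (0.51, limma adjusted p = 0.00754). xpo-7, on chromosome V, was at −0.304, 0.19 and 0.21, with prep 1 on the other side of 0. Its mean was 0.03 with a 95% interval of −0.31 to 0.37 (limma adjusted p = 0.886).

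In the Ran system 4 of 5 genes were above the reference, and the GTPase-activating protein was the exception. ran-3, on chromosome II, encodes the exchange factor that loads Ran with GTP and was at 1.25, 1.17 and 0.898 on preps 1, 2 and 3, with a mean of 1.11 ± 0.19 (SD, n = 3; limma adjusted p = 1.99e-04). ran-1, on chromosome III, encodes the GTPase itself and was at 1.35, 0.78 and 0.69, with prep 1 the high one and a mean of 0.94 ± 0.36 (SD, n = 3; limma adjusted p = 0.00119). ran-4, on chromosome I, encodes the transport factor that returns Ran to the nucleus and was at 0.93, 0.61 and 0.71 (mean 0.75, limma adjusted p = 0.00165).

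ran-5, on chromosome II, which encodes a Ran-binding protein, was at 0.66, 0.91 and 0.45 on preps 1, 2 and 3 (mean 0.67, limma adjusted p = 0.0039), but it did not pass without prep 2 (0.55, limma adjusted p = 0.057). ran-2, the gene of the GTPase-activating protein on chromosome III, was at 0.11, −0.37 and −0.21 and so lay on both sides of 0. Its mean was −0.16 with a 95% interval of −0.48 to 0.17 (limma adjusted p = 0.415), the 1 negative mean of the 32 genes. Once blocks of neighbouring probes were centred it passed as below the reference, at −0.36 (limma adjusted p = 0.0444). Of the genes for which no place in the pore was listed, npp-27 was at 0.42, 0.36 and 0.19 (limma adjusted p = 0.0764) and npp-26 at 0.18, 0.42 and 0.12 (limma adjusted p = 0.183), both on chromosome IV, and neither passed.

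The preps differed from each other for some of the 32 genes more than for others. Each prep was on its own array, so a difference between preps cannot be told apart from one between arrays. The median range over the 3 preps was 0.38, and 8 of the 32 genes had a range above 0.5. Prep 1 differed from the mean of preps 2 and 3 by more than 0.5 for 7 genes, with npp-15, ran-1, npp-18 and npp-5 higher on prep 1 and npp-14, npp-23 and xpo-7 lower. Prep 3 gave the lowest of the 3 values for 21 of the 32 genes. These counts were not made over all genes, so they are not traits of the 32 genes in particular. The median SD over the preps was 0.19 for the 32 genes and 0.22 for all genes tested. Across the 32 genes, Pearson's r was 0.92 between preps 2 and 3, 0.77 between preps 1 and 2 and 0.74 between preps 1 and 3, and over all probes it was 0.91, 0.796 and 0.77 for the same pairs. These are correlations across genes, which share the arrays and the reference and are not independent replicates.

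The position of a probe in the array's list moved with some of these differences. In the block of 200 probes around npp-15 the median was 0.39 on prep 1, 0.15 on prep 2 and 0.05 on prep 3. Taken from its block, npp-15 was still highest on prep 1, at 1.22 against 0.68 and 0.65. Around npp-14 the block medians were −0.08, 0.24 and 0.35, and taken from its block npp-14 was at 0.59, 1.08 and 0.74. npp-7 and ran-1 share a block but had their high values on different preps. The mean ratio was above the block median for 31 of the 32 genes. Blocks and chromosomes were not fully separate. The block medians of ima-1, xpo-1 and xpo-7, all on chromosome V, were −0.19, −0.16 and −0.14, where all genes of that chromosome had a median of −0.08. Centring blocks may thus also take out differences between chromosomes, which was not tested.

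**Figure D3:**
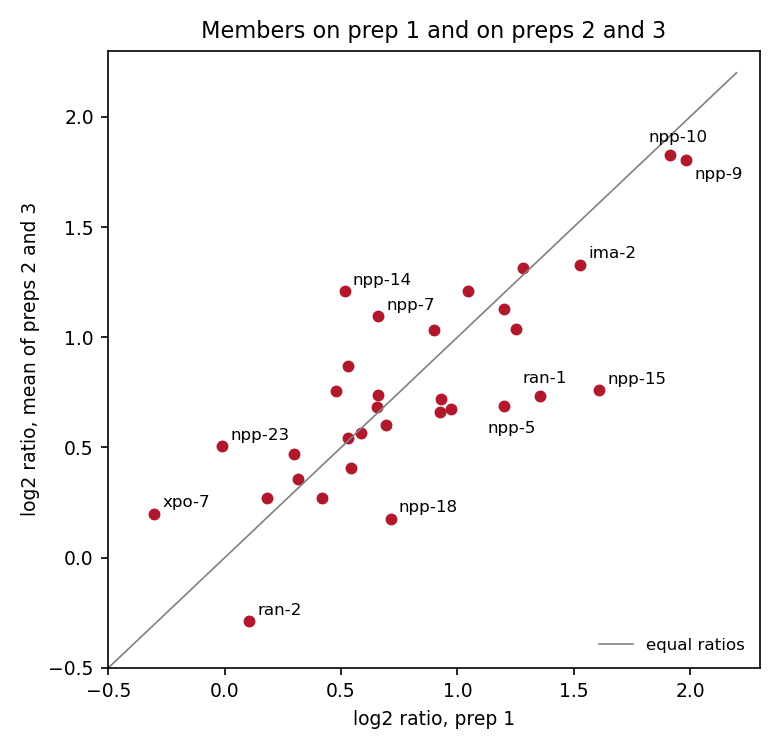
Log2 ratio on prep 1 (horizontal) against the mean log2 ratio of preps 2 and 3 (vertical), a point for each of the 32 genes, with the line of equal ratios. npp-15, ran-1, npp-5 and npp-18 lie below the line and npp-14, npp-23 and xpo-7 above it, each by more than 0.5 on the log2 scale.

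The genes are spread over the autosomes. None of the 32, and 0 of the 41 protein-coding genes with these stems in a table of WBcel235 genes, lies on the X chromosome, where 6.49% of all measured genes were above the reference. On chromosomes I and II, 17 of 17 nuclear pore and transport genes were above, with medians of 0.95 on I and 0.81 on II, while the medians of all genes there were 0.17 and 0.09 and the shares of all genes above were 33.7% on I and 26.3% on II. On chromosome III 5 of 7 were above, with a median of 0.94 beside 0.15 for all genes, of which 32.5% were above. On chromosome IV 2 of 5 were above, beside 26.7% of all genes there, with a median of 0.33 beside 0.07. On chromosome V 1 of 3 was above, beside 13.02% of all genes there, with a median of 0.34 beside −0.08. The mean ratio was above the median of its own chromosome for 31 of the 32 genes, with ran-2 the exception. No test was run on the difference between chromosomes.

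**Figure D4:**
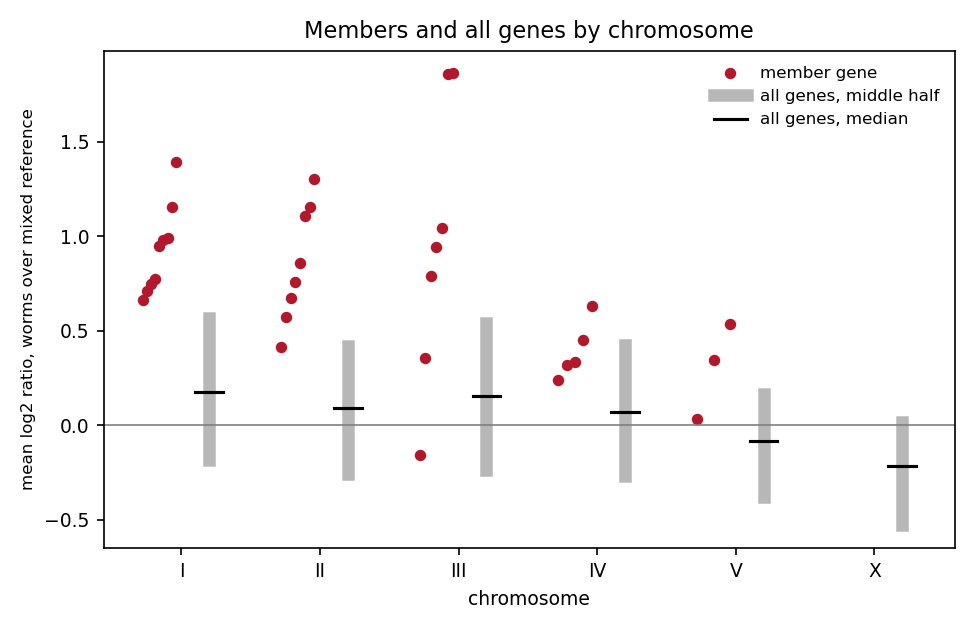
Mean log2 ratio of worms to reference by chromosome, with a red point for each nuclear pore and transport gene and, to its right, the interquartile range (grey) and median (black) of all genes. Every red point except that of ran-2 on III is above the median of its chromosome, and X holds no red point.

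npp-15 and ran-2 are direct neighbours on chromosome III in the gene table, yet npp-15 had the higher ratio on every array. The difference of their log2 ratios was 1.504, 1.19 and 0.91 on preps 1, 2 and 3, a mean of 1.201 ± 0.30 (SD, n = 3), with no test run. Of the 57 measured genes that directly neighbour 1 of the 32 and are not among them, 26 were above the reference, 9 below and 22 did not pass, with a median of 0.28. Their share above, 45.6%, lay between the 78.1% of the 32 genes and the 21.7% of all genes.

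Related genes outside these stems, from a list chosen with earlier results of these data known, were mostly above the reference as well. Of 20 measured genes of other transport steps, RNA export and SUMO conjugation, 13 were above and 1 below the reference and the other 6 did not pass, with a median of 0.596. The highest was ddx-19, the gene of a helicase that strips proteins from exported mRNA at the pore, at 1.61, 1.54 and 1.37 on preps 1, 2 and 3 (limma adjusted p = 2.76e-05). It was followed by mel-28, whose product seeds new pores on chromatin, at 1.04, 1.71 and 1.19 (limma adjusted p = 1.72e-04). The lowest were aly-1, the gene of an mRNA export adaptor, at −0.95, −0.48 and −0.58 (limma adjusted p = 0.00421), and the mRNA export receptor gene nxf-1 at 0.58, 0.04 and −0.66, which scattered around 0 (limma adjusted p = 0.967). Other genes with these stems were higher. aly-2 was above the reference at a mean of 1.02 (limma adjusted p = 8.07e-04) and nxf-2 at 0.59 (limma adjusted p = 0.00467), while aly-3 at 0.34 did not pass (limma adjusted p = 0.0674).

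Of 13 measured genes listed under the nuclear envelope and lamina, 8 were above and 1 below the reference and the other 4 did not pass. Their median was 0.602, and the place of each product was not examined. The highest were vrk-1, the gene of a kinase needed to rebuild the envelope after mitosis, at 1.36, 0.98 and 0.804 on preps 1, 2 and 3 (limma adjusted p = 4.34e-04), and lem-3 at 1.05, 1.09 and 0.67 (limma adjusted p = 6.29e-04). The lowest were the partner genes of nuclear migration, unc-83 at −1.13, −0.404 and −0.47 (limma adjusted p = 0.00957) and unc-84 at −0.08, −0.29 and −0.73 (limma adjusted p = 0.086). unc-84 is X-linked, and without prep 1 it passed as below the reference, at −0.51 (limma adjusted p = 0.0131). It was nearer 0 without prep 3 (−0.18, limma adjusted p = 0.548) and with blocks of neighbouring probes centred (−0.11, limma adjusted p = 0.612). The call of unc-83 ended against a 1.2-fold margin (limma adjusted p = 0.0669).

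Markers of the germline were above the reference in the same worms. Of 15 measured germline markers, 14 were above and 0 below the reference and the remaining 1 did not pass, with medians of 1.05, 1.37 and 1.06 on preps 1, 2 and 3. They ran from pgl-2 at a mean of 0.23, which did not pass, to the P granule helicase gene glh-1 at 2.52. The part of the germline's share of the RNA in the ratios of the pore and transport genes was not tested. Of 11 sperm markers, 8 were above, from fog-3 at −0.10 to ssp-16 at 2.87, with medians of 0.82, 0.902 and 1.69 on the 3 preps.

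Markers of other tissues lay on both sides of the reference. Of 8 body muscle markers, 4 were above and 0 below, from unc-22 at 0.00 to mup-2 at 1.197. Of 10 intestinal markers, 4 were above and 4 below, from mtl-1 at −3.47 to cpr-5 at 2.77. Of 11 neuron markers, 0 were above and 6 below, from flp-1 at −3.31 to egl-21 at 0.23. Of 7 embryo markers, 0 were above and 4 below, from sdz-24 at −1.55 to end-1 at 0.26. Of 8 genes listed as male neuron markers, not all of them particular to males, 0 were above and 1 below. They ran from cwp-4 at −0.73 to lov-1 at 0.37, which passed without prep 1 (0.47, limma adjusted p = 0.0144). Of 6 adult stage markers, 4 were above and 2 did not pass, from the yolk protein gene vit-5 at 0.05 to col-62 at 2.69. The 2 that did not pass were vit-5 and a second yolk protein gene, vit-6, at 0.25. The direction of the ratio was read in part from adult collagen genes. The side of the collagen genes col-62, col-19 and col-7 here thus follows from that reading. The other adult marker above was vit-2, at a mean of 0.68 but at −0.09 on prep 3.

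**Figure D5:**
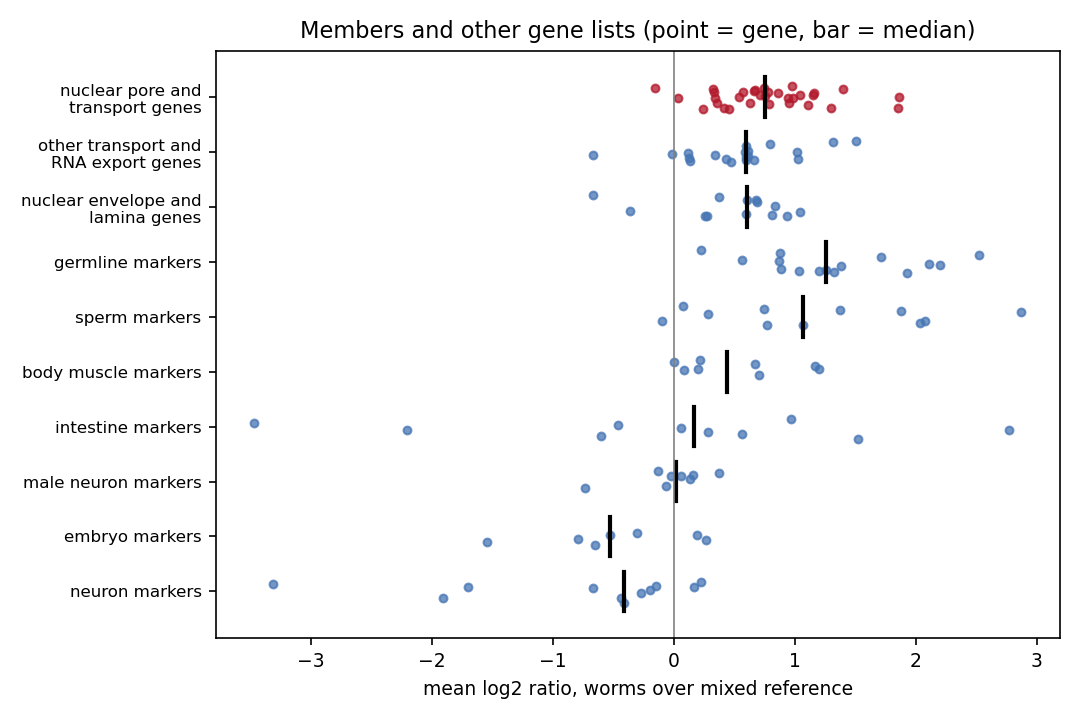
Mean log2 ratio of worms to reference, a point for each gene, with a black bar at each list's median. The 32 nuclear pore and transport genes (red) have their median at 0.75, between the germline markers at 1.25 and the lists of body muscle at 0.44, intestine at 0.17 and male neurons at 0.02, with neuron markers at −0.42 and embryo markers at −0.53.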

How the data were processed

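The deposited table gives a log2 ratio for each probe on each array. Base 2 was read from the values, since turning them back gave steps of 0.001 (to within 0.01 step) for 100% of the ratios under 1. What the authors did before deposit (scanning, background correction, normalization) is not stated in the labels used here. Column medians were 0.01, 0.01 and 0.02, so the centring is near 0 and the direction stays likely rather than known. Of 20000 probes, 19664 had a value on all 3 arrays. The platform's table gave 15655 probes 1 gene symbol, 198 several, and did not list 4147. Gene IDs matched a WBcel235 table for 15569 probes and all 32 members, and chromosome and gene order were taken from that table. Positions are not printed, since the array has no stated build. The 16 symbols with several gene IDs were kept apart, and probes of a gene were averaged (414 genes had several).

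limma 3.58.1 (R 4.3.3) tested the mean ratio against 0 over 15078 genes, two-sided, with Benjamini-Hochberg adjustment. The reference is common to the arrays, so the test does not hold the reference's spread, and with no known dye swap a dye effect of a gene cannot be told apart. It was tested on simulated data made with the measured spread for 15078 genes. Of 200 altered genes, it found 4% at a log2 change of 0.5, 86% at 1 and 100% at 2, and it also called 9 unaltered genes. In the data far more genes were called, 21.7% above and 22.2% below, so the adjustment was less strict there. The simulated rates therefore do not give the share of changes found in these data. Members and lists were chosen with earlier results of these data known, so lists got counts and medians only. Named were every member, the 2 highest and 2 lowest genes of each related list, and the highest and lowest of each marker list. A few relatives of these genes were named beside them. Protein sequence features were planned and not analysed here. The alternatives were arrays centred, scaled or quantile normalized, a value needed on 2 arrays only, centred blocks of 200 neighbouring probes, robust eBayes, no moderation, a 1.2-fold margin, probes in place of genes, a size limit of 0.5 and each prep left out.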

Additional observations from a re-analysis of the deposited data

How the results depend on the processing

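Arrays that were centred, scaled or quantile normalized, probes on at least 2 arrays and robust eBayes left all 32 genes on their side of the threshold and of 0. Blocks of neighbouring probes, centred, also gave 25 genes above, but with xpo-1 in place of npp-24, and 1 below (ran-2), with a median of 0.63, and 29 of 32 genes kept sign and call. Without variance moderation limma called 0 of the 32 genes above, 0 below and, of all genes, 0 above and 0 below (smallest adjusted p = 0.0665), so 7 kept their call, while at an unadjusted p of 0.05 it called 23 of the 32 above and 0 below, and of all genes 2587 above and 2813 below. The calls thus rest on the variance shared across genes. Against a 1.2-fold margin 21 of the 32 were above, with 1973 of all genes above and 2087 below, where the count without the margin was 3278 and 3351. With each prep left out, 20 to 27 of the 32 were above, 0 were below, the median ran from 0.70 to 0.78, and 2277 to 3833 of all genes were above. Without prep 2 the p-values followed the mean ratio alone. There npp-1 and npp-18 were both at 0.376, and both had a limma adjusted p of 0.234. Yet on preps 1 and 3 npp-1 was at 0.54 and 0.21, and npp-18 at 0.71 and 0.04. Calls lost without prep 2 thus mark a lower mean ratio and not a gene's own spread. With probes in place of genes 26 probes of the 32 genes were above, beside 4063 of all probes above and 3962 below. By at least 0.5, 23 of the 32 genes were above, beside 2679 of all genes above and 2726 below.

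Signs turned only for genes that did not pass. xpo-7 was at 0.1997, −0.045 and −0.0594 without preps 1, 2 and 3. nxf-1 was at 0.0747 with blocks centred and ran from −0.308 to 0.31 with a prep left out, and fog-3 ran from −0.29 to 0.0433. vit-5 was at −0.000738 with blocks centred and ran from −0.192 to 0.319 with a prep left out. unc-22 was at 0.00304 with scaled arrays, 0.00287 with quantile normalization and 0.105 with blocks centred, and ran from −0.182 to 0.1005 with a prep left out. No paired analysis was possible because the study has 1 group. Spot intensities were not analysed here, so dim spots could not be set aside.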

Other observations

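The importin alpha gene ima-3, which is needed for meiosis, had a value on 2 arrays, at −0.84 on prep 1 and 1.61 on prep 2, so its direction was not settled. With probes on at least 2 arrays admitted, it did not pass.

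Some of the genes that directly neighbour the nuclear pore genes, chosen here after their values were seen, lay far on the other side of the reference. The collagen gene col-84 beside npp-3 was at −3.06 ± 0.35 (SD, n = 3), pamn-1 beside npp-7 at −1.88 ± 0.23, and unc-108 beside npp-11 at −1.01 ± 0.14. Others were higher than their neighbour among the pore and transport genes, such as dkc-1 at 1.58 ± 0.48 beside ran-1 and gldc-1 at 1.33 ± 0.07 beside ran-5.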
